A study of Mus musculus with 6 samples.

Results

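Mek inhibition in wild-type mouse embryonic stem cells (ESCs) was examined by setting 1 library of KH2 ESCs that had received the inhibitor PD0325901 for 48 hours against 1 library of KH2 ESCs left untreated. These are 2 of the 6 libraries of the study and were chosen by their labelled cell line and treatment. KH2 is an ESC line of C57BL/6 x 129 background, labelled wild type, that carries a doxycycline-responsive transactivator and a docking site downstream of Col1a1 for inducible transgenes. The design text pairs these libraries to ask what Mek inhibition does in wild-type cells. The other 4 libraries came from KH2 cells labelled iErk1; Erk KO that were kept with doxycycline (Dox), without it for 48 hours, or without it for 96 hours with or without the inhibitor. Of these, cells kept without Dox for 96 hours, with PD0325901 in the last 48 of them or without the inhibitor, are cited below as a second inhibitor pair. The dose of PD0325901, the culture medium, the use of feeder cells and the number of cultures behind a library are not given in the labels.

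Mek1 and Mek2 are the kinases that phosphorylate the Erk kinases, and PD0325901 is an allosteric Mek inhibitor. Active Erk raises transcription of its own brakes, the Sprouty proteins and the dual-specificity phosphatases, and of Ets factors of the Etv group, so these genes serve as a transcriptional readout of the pathway. In mouse ESCs, Fgf4 signalling through Erk favours the exit from the naive state, the ground state of pluripotency, toward the formative state that precedes lineage choice. Mek inhibitors are therefore part of the media that hold ESCs in the naive state.

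The treated library held about 9050000 and the untreated library about 9090000 reads assigned to genes, and the deepest of the 6 libraries held about 9950000. A gene had at least 1 read for 17378 genes in treated and 17403 genes in untreated cells, and the 10 genes with the most reads took 4.64% of the treated and 4.78% of the untreated library. Levels are given as RPKM, a read count scaled to the length of the gene and to the size of the library, on which 1 read on a gene of 2 kb is worth about 0.055. The 8 ESC markers Pou5f1, Sox2, Nanog, Zfp42, Sall4, Dppa5a, Tdgf1 and Esrrb were at 1 RPKM or more in both libraries, with a sum of 3647 RPKM in treated and 3971 RPKM in untreated cells. Markers of other cells were present as well. All 30 fibroblast markers on the list had reads in both libraries, with 29 at 1 RPKM or more in treated and 28 in untreated cells. Of 15 endothelial markers, 6 reached that level in treated and 9 in untreated cells, and of 20 macrophage and blood markers, 18 of which are in the files, 2 did in each library. The endothelial markers summed to 71.5 RPKM in treated and 72.8 RPKM in untreated cells, and the macrophage and blood markers to 45.1 and 40.9 RPKM in the same order. Much of each sum came from 1 gene, Pecam1 with 29.3 RPKM treated and 22.6 untreated, and Laptm5 with 27.2 and 21.6 RPKM. By the rule given below, 2 of 9 compared endothelial genes, Robo4 and Esam, were lower and 0 higher. Both calls end when at least 100 reads are required. The macrophage genes Tyrobp, C1qa and C1qb had 0 reads in both libraries, which allows up to 3 reads in each.

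With 1 library per side there is no spread between replicates, no test and no p-value, and every difference below is between these 2 libraries. A gene was called higher or lower when the log2 ratio of RPKM plus 0.5 was at least 1 in size and the higher library had at least 1 RPKM. In addition, it needed at least 20 reads over both libraries and an exact 95% interval of the fold, from counting error alone, that excluded 1. Of 12787 genes that met the limits on reads and level, 5.08% were called, 493 higher with PD0325901 (3.86%) and 156 lower (1.22%). The median log2 ratio of these 12787 genes was −0.02, with a 5th percentile of −0.61 and a 95th percentile of 0.89. Calls were more frequent among genes with few reads. With 20 to 100 reads over both libraries 6.58% of 1657 genes were called higher and 3.80% lower, whereas with at least 1000 reads 2.68% of 4328 genes were called higher and 0.531% lower. The lists and families of related genes below are each described by these calls and by the median over their compared members, beside the values over all genes. With 3.86% of all genes called higher and 1.22% lower, 0 calls in 1 direction is near that background for a short list.

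**Figure D1:**
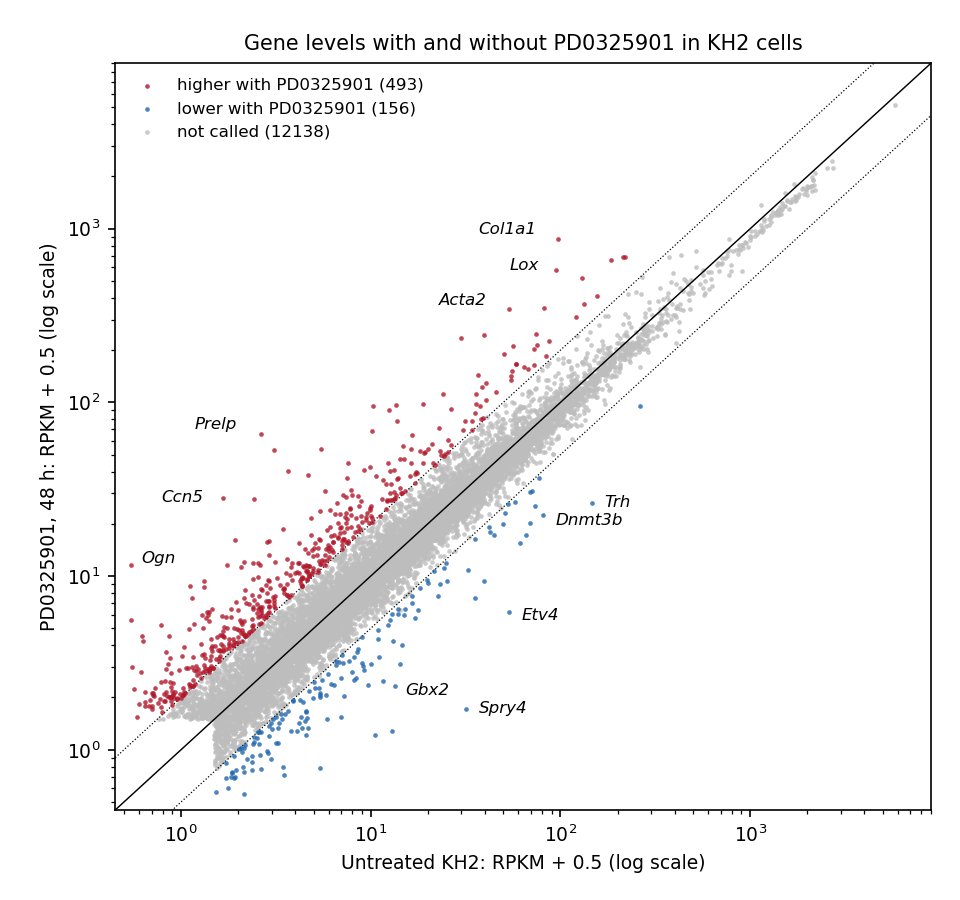
Levels of the 12787 compared genes, with the PD0325901 library on the vertical axis and the untreated library on the horizontal axis (RPKM plus 0.5, log scales, 1 library each). The solid line marks equal levels and dotted lines 2-fold differences; red points are the 493 genes called higher, blue points the 156 called lower, and Spry4 lies farthest below the line.

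The kinases themselves were at like levels in the 2 libraries. Of 25 compared genes of the Mek and Erk cascade 0 were called in either direction, with a median log2 ratio of 0.01. Map2k1, which encodes Mek1, had 107 RPKM in treated and 88.4 RPKM in untreated cells. Map2k2, which encodes Mek2, had 34.9 RPKM in treated and 32.8 RPKM in untreated cells. Neither difference reached the limits of the rule.

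Among the pathway's inhibitors the losses were concentrated in a few members. Spry4, a Sprouty protein that blocks signalling below receptor tyrosine kinases, had 51 reads (1.22 RPKM) in treated and 1316 reads (31.4 RPKM) in untreated cells, the lowest log2 ratio (−4.21) of the 12787 genes. Spred1, which holds Ras inactive together with neurofibromin, had 10.2 RPKM in treated and 21.2 RPKM in untreated cells, a log2 ratio of −1.02 at the edge of the limit. It is no longer called with a pseudocount of 1 or when library sizes are scaled by TMM or without the mesenchymal genes described below. These were the 2 lower genes of 11 compared Sprouty, Spred and Sef inhibitors. Spry2, the Sprouty gene with the most RPKM in untreated cells, had 24.2 RPKM in treated and 47.9 RPKM in untreated cells, a log2 ratio of −0.97 just inside the limit. The list's median was −0.47, and 10 of the 11 log2 ratios were negative.

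The dual-specificity phosphatases, which remove phosphate from MAP kinases, divided. Dusp6, a cytoplasmic phosphatase selective for Erk, had 177 reads (6.95 RPKM) in treated and 889 reads (34.8 RPKM) in untreated cells, 5-fold lower (4.25 to 5.91). Dusp9, a related phosphatase, had 19.4 RPKM in treated and 49.3 RPKM in untreated cells, 2.54-fold lower (2.28 to 2.83). Dusp8, which acts mainly on Jnk and p38, was the 1 higher gene of the 11, with 4.09 RPKM in treated and 1.11 RPKM in untreated cells. The nuclear phosphatase genes differed less, Dusp4 with 11.4 RPKM in treated and 16.5 RPKM in untreated cells and Dusp1 with 134 and 75.4 RPKM in the same order. The list as a whole had a median of 0.13, so it did not move in 1 direction.

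The Ets factors of the Pea3 group showed a graded difference. Etv4 had 121 reads (5.72 RPKM) in treated and 1128 reads (53.1 RPKM) in untreated cells, and Etv1 had 39 reads (1.04 RPKM) in treated and 244 reads (6.47 RPKM) in untreated cells. Both were called lower, with log2 ratios of −3.11 and −2.18. Etv5, the member with the most RPKM in this group, had 55.6 RPKM in treated and 80.6 RPKM in untreated cells and a log2 ratio of −0.53. Of 13 compared Ets genes and partners 2 were lower and 0 higher, and those within the limit included Gabpa with 34.9 and 33.3 RPKM and the Erk-inactivated repressor Cic with 32.2 and 26.6 RPKM, treated first in each pair.

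Immediate early genes, which in many cells depend on Erk for their induction, were not low in the treated library. Of 18 compared members 3 were called higher and 0 lower, a called share of 16.7% beside 5.08% of all genes. The median log2 ratio was 0.63. Fosl2, a subunit of the AP-1 factor, had 20.7 RPKM in treated and 7.01 RPKM in untreated cells, and Ier3 had 114 RPKM in treated and 45.3 RPKM in untreated cells. The stress-induced factor Atf3 had 30.6 RPKM in treated and 14.6 RPKM in untreated cells. Fos had 163 and 84.0 RPKM, Egr1 214 and 168 RPKM and Jund 119 and 72.9 RPKM, in treated and untreated cells each, with log2 ratios of 0.95, 0.35 and 0.71 that did not reach the limit.

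**Figure D2:**
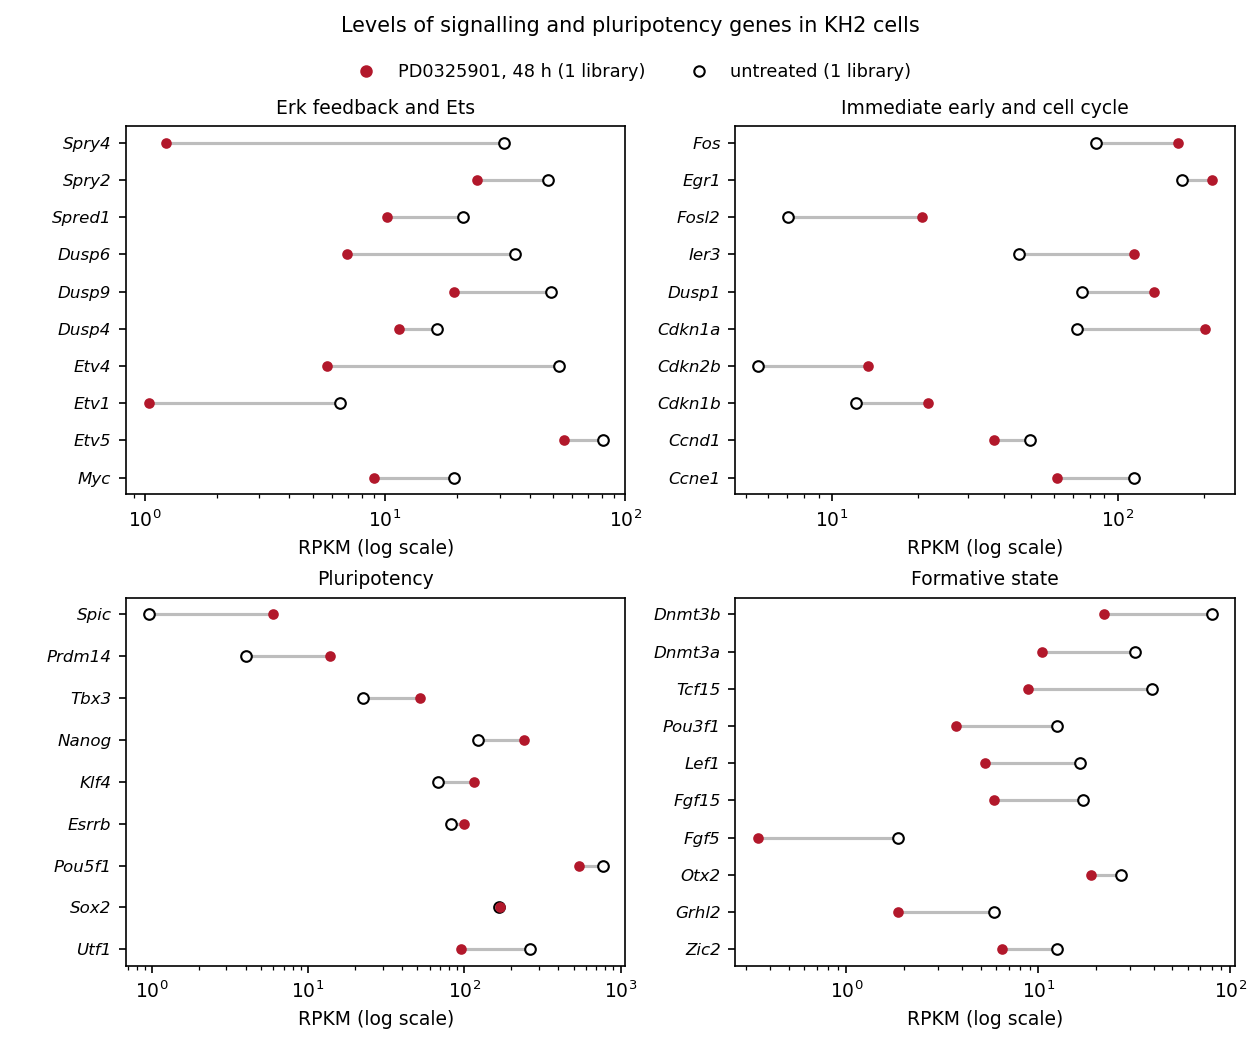
RPKM (log scale) of 39 signalling, cell cycle and pluripotency genes in the PD0325901 library (filled red) and the untreated library (open), 1 library each, joined by a line per gene. The widest gaps are those of Spry4 (1.22 against 31.4 RPKM), Etv4 and Etv1, with the treated value on the low side, and of Spic and Prdm14 with it on the high side.

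Genes of growth control differed at a few points. Myc, the growth-promoting transcription factor, had 8.98 RPKM in treated and 19.4 RPKM in untreated cells, and it was the 1 lower gene of 17 Myc genes and G1 cyclins. The called share of that list, 5.88%, is near the 5.08% of all genes. Cyclin E1 (Ccne1), the dominant G1/S cyclin of ESCs, had 61.2 RPKM in treated and 114 RPKM in untreated cells, a log2 ratio of −0.90. Of 8 genes for inhibitors of cyclin-dependent kinases 2 were called higher and 0 lower, and 7 of the 8 had a positive log2 ratio. Cdkn1a (p21) had 203 RPKM in treated and 72.3 RPKM in untreated cells, and Cdkn2b (p15) had 13.4 and 5.53 RPKM in the same order. Cdkn1b (p27) had 21.7 RPKM in treated and 12.2 RPKM in untreated cells, while Cdkn1c was the member with the opposite sign at 8.27 and 15.2 RPKM. Of 30 replication and mitosis genes 0 were called, with a median of −0.16. There, Mki67 had 27.4 RPKM in treated and 32.3 RPKM in untreated cells and Pcna 243 and 283 RPKM.

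Naive pluripotency factors were higher in part. Of 19 compared members 4 were called higher and 0 lower, with a median log2 ratio of 0.67. Spic, an Ets factor of the naive network, had 68 reads (5.94 RPKM) in treated and 11 reads (0.956 RPKM) in untreated cells. Prdm14, which represses Fgf receptor and Dnmt3 genes in ESCs, had 323 reads (13.8 RPKM) in treated and 94 reads (3.99 RPKM) in untreated cells. The adhesion gene Jam2 had 35.8 RPKM in treated and 13.2 RPKM in untreated cells, and the T-box factor Tbx3 had 52.1 and 22.6 RPKM in the same order. The more abundant factors named next differed by less than the limit, although Nanog passes it under TMM scaling or with library totals taken without the mesenchymal lists. Nanog had 242 RPKM in treated and 122 RPKM in untreated cells (log2 ratio 0.98), Klf4 had 115 and 67.9 RPKM (0.76), and Klf2 had 214 and 144 RPKM (0.57).

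Genes shared by naive and later pluripotent cells leaned the other way, with a median of −0.51 over 19 members. Utf1, a chromatin-bound factor, had 95.5 RPKM in treated and 262 RPKM in untreated cells. It was 1 of 2 lower members, with 0 higher. Pou5f1 (Oct4) had 539 RPKM in treated and 769 RPKM in untreated cells (−0.51), Tdgf1, the Nodal co-receptor, 570 and 903 RPKM (−0.66), and Sox2 170 and 166 RPKM (0.03).

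Most formative and primed genes were lower. Of 18 members 10 were called lower and 0 higher, beside 1.22% of all genes called lower, with a median of −1.41. Tcf15, a helix-loop-helix factor that marks cells about to leave the naive state, had 8.85 RPKM in treated and 39.2 RPKM in untreated cells. The Pou factor Pou3f1 (Oct6) had 3.74 RPKM in treated and 12.6 RPKM in untreated cells, and the epithelial factor Grhl2 had 1.85 and 5.91 RPKM in the same order. Zic5, Fgf5, Fgf15, Lef1, Utf1 and the de novo methyltransferase genes made up the rest of the 10. Otx2, a central formative factor, had 18.8 RPKM in treated and 26.9 RPKM in untreated cells (−0.50), and Zic2 had 6.48 and 12.5 RPKM (−0.89), neither called.

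Of 18 genes of the DNA methylation machinery 2 were higher, 3 lower and 13 not called. The de novo methyltransferases were lower, Dnmt3b with 22 RPKM in treated and 80.5 RPKM in untreated cells and Dnmt3a with 10.4 and 32.0 RPKM in the same order. Their cofactor Dnmt3l had 74.2 RPKM in treated and 119 RPKM in untreated cells (−0.68) and was not called. Uhrf1, which guides the maintenance methyltransferase, had 99 RPKM in treated and 110 RPKM in untreated cells. The Gadd45 genes, stress-response genes that have been tied to active demethylation, went in opposite directions. Gadd45g had 394 reads (40.3 RPKM) in treated and 86 reads (8.75 RPKM) in untreated cells, and Gadd45a had 186 reads (16.8 RPKM) in treated and 490 reads (44.0 RPKM) in untreated cells. The other higher member was Prdm14.

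**Figure D3:**
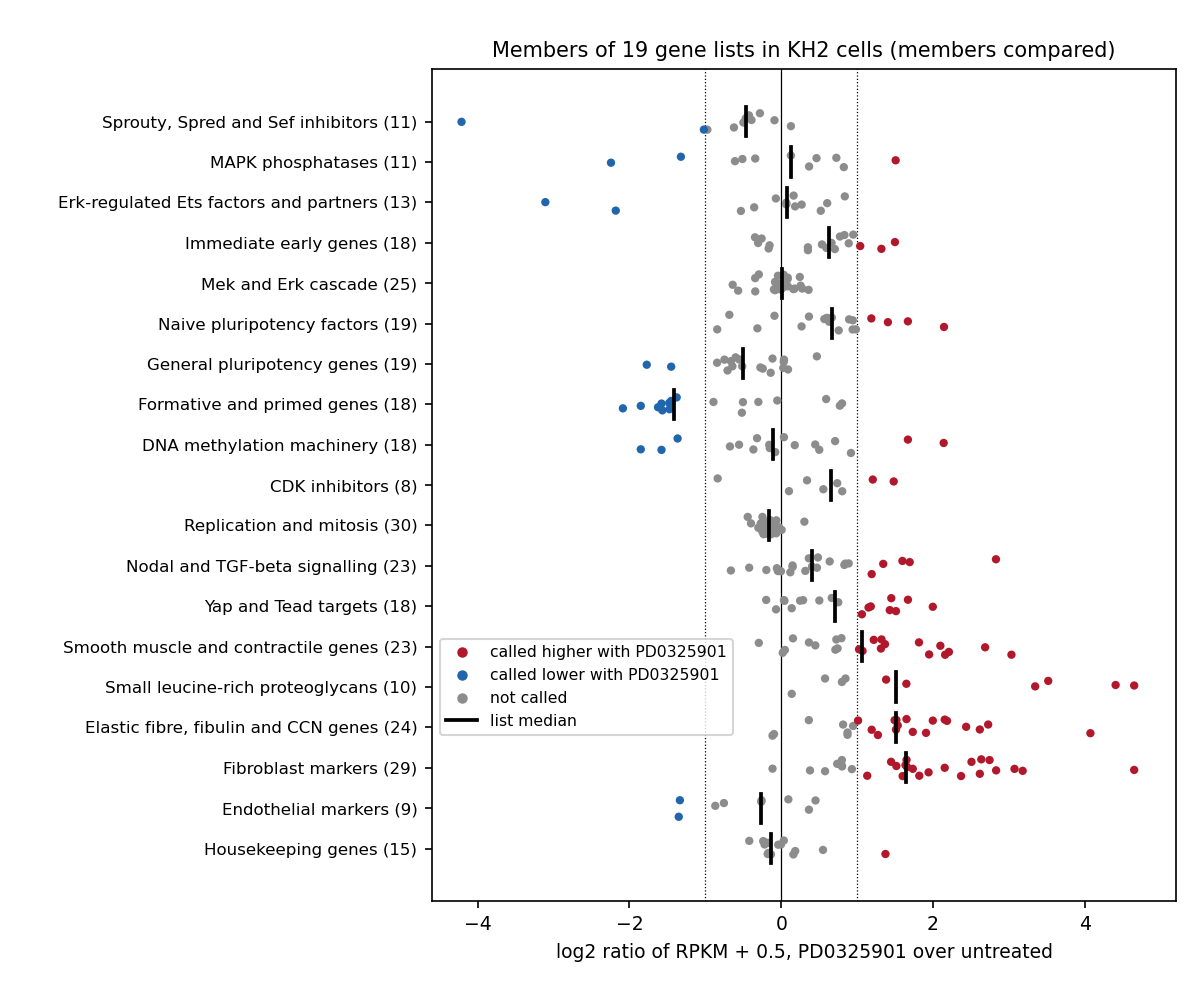
Log2 ratio of RPKM plus 0.5, PD0325901 over untreated, for each compared member of 19 gene lists, with the number of members in brackets. Red and blue points are called higher and lower, grey points are not called, black bars are list medians and dotted lines mark 2-fold; the formative list has its median at −1.41 and the fibroblast list at 1.65.

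Ligands and receptors that feed the pathway were called in small numbers. Of 20 Fgf ligands, receptors and cofactors 3 were lower, Fgf17 with 2.10 RPKM in treated and 7.83 RPKM in untreated cells, Fgf15 with 5.86 and 17.2 RPKM, and Fgf5 with 8 reads in treated and 43 reads in untreated cells. Fgf4, the main Fgf of ESCs, had 90.9 RPKM in treated and 58.5 RPKM in untreated cells (0.63), and its receptor gene Fgfr1 had 45.8 and 33.9 RPKM (0.43). Hs6st1, which sulfates the heparan chains that Fgfs bind, was the 1 higher member with 49.8 RPKM in treated and 24.2 RPKM in untreated cells. Among 27 other receptor tyrosine kinases and ligands, the collagen receptor gene Ddr2 (7.16 RPKM treated, 2.62 untreated) and Pdgfa (43.4 and 21.4 RPKM) were higher and the Egf family ligand Areg (5 reads treated, 26 untreated) was lower. Of 16 Eph receptor and ephrin genes, Epha4 was higher with 10.1 RPKM in treated and 4.14 RPKM in untreated cells and Epha1 lower with 2.63 and 9.58 RPKM.

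Other pathways that act on ESCs gave calls as well, beside 3.86% of all genes called higher and 1.22% called lower. In the Nodal and TGF-beta list 5 of 23 genes were higher and 0 lower. The ligand gene Tgfb2 had 378 reads (8.84 RPKM) in treated and 35 reads (0.815 RPKM) in untreated cells, 10.8-fold higher (7.66 to 15.8), and Tgfb3 had 9.23 RPKM in treated and 2.72 RPKM in untreated cells. The receptor gene Tgfbr2 had 10.8 RPKM in treated and 3.94 RPKM in untreated cells, and the latent-TGF-beta binding gene Ltbp2 had 19 and 8.04 RPKM. Ltbp2 is also on the elastic fibre list described below. Whether fibroblast-type cells, whose markers are described below, had a part in these calls was not tested. The Nodal arm differed less, with Nodal at 37.2 RPKM in treated and 37.3 RPKM in untreated cells, Lefty1 at 63.0 and 65.6 RPKM and Lefty2 at 140 and 75.3 RPKM (0.89). In the BMP list Nog (26 reads treated, 8 untreated) and Bmp2 (52 and 18 reads) were higher, Bmp4 (48 and 121 reads) was lower and 15 of 18 genes were not called. Both higher calls end with a pseudocount of 1 RPKM. Id1, a BMP target, had 25.8 RPKM in treated and 40.2 RPKM in untreated cells, and Id3 had 41.0 and 32.6 RPKM.

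Wnt genes went both ways, 4 higher and 4 lower of 25. The secreted antagonists Sfrp1 and Dkk3 were higher, at 46.7 RPKM in treated and 13.7 RPKM in untreated cells for Sfrp1, and so were the ligand genes Wnt4 and Wnt5a, whose calls end with a pseudocount of 1 RPKM. Lower were the ligand gene Wnt8a, the Wnt-responsive factors Lef1 (5.26 RPKM treated, 16.5 untreated) and Cdx2, and Porcn, the acyltransferase that readies Wnt proteins for secretion, at 22.5 RPKM in treated and 50.4 RPKM in untreated cells. The calls of Wnt8a and Cdx2 end when at least 100 reads are required. Axin2, a direct target of canonical Wnt signalling, had 4.88 RPKM in treated and 4.86 RPKM in untreated cells. In the LIF and Stat3 list, Gbx2 was lower with 35 reads (1.82 RPKM) in treated and 250 reads (12.9 RPKM) in untreated cells, and the cytokine receptor gene Osmr was higher with 7.86 and 2.16 RPKM. The Stat3 target Socs3 had 55.4 RPKM in treated and 77.2 RPKM in untreated cells (−0.47), not called. Of 15 retinoic acid genes 3 were lower, the receptor gene Rarg (36 RPKM treated, 76.7 untreated), the binding protein gene Crabp1 (25.7 and 52.7 RPKM) and the early target Hoxb1 (1 read treated, 31 untreated, 30.9-fold lower with a counting interval of 5.14 to 1258). The call of Crabp1 ends under TMM scaling or totals without the mesenchymal lists. The Hedgehog target Gli1 was the 1 gene called among 19 Notch and Hedgehog genes, at 5.07 RPKM in treated and 12.1 RPKM in untreated cells. The called share of that list, 5.26%, is near the 5.08% of all genes.

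A group of the higher genes was of mesenchymal type. Fibroblast markers are among the 5 lists joined here and share members with the others, such as Col1a1, Lox and Prelp. A union of 5 lists (fibroblast markers, small leucine-rich proteoglycans, elastic fibre genes, contractile genes and collagen chains) held 98 compared genes. Of these, 60 were higher and 0 lower, beside 3.86% of all genes called higher and 1.22% called lower. The 0 lower calls are near that background. Called shares in the order of these lists were 69.0%, 60.0%, 70.8%, 56.5% and 60.7%, beside 5.08% of all genes. The union took 2.89% of all reads in treated and 0.939% in untreated cells. Fewer fibroblast-type cells in the untreated culture and less of these RNAs per cell cannot be told apart in bulk RNA. The 30 fibroblast markers summed to 3233 RPKM in treated and 745 RPKM in untreated KH2 cells. In the engineered line they summed to 1220 RPKM with the inhibitor and 365 RPKM without it at 96 hours without Dox, and to 305 RPKM with Dox. The part of fibroblast-type cells in the calls above and below was not tested.

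Fibrillar and network collagens were higher across the family. Of 28 compared collagen chains 17 were higher and 0 lower, with a median log2 ratio of 1.38. Col1a1, a chain of the main fibrillar collagen, had 37391 reads (878 RPKM) in treated and 4124 reads (96.4 RPKM) in untreated cells, the largest gain in RPKM of any gene. Its partner chain Col1a2 had 244 RPKM in treated and 38.9 RPKM in untreated cells, 6.28-fold higher (5.98 to 6.6), Col3a1 had 67.5 and 9.65 RPKM, and Col5a2, which sets fibril width, had 96.4 and 13.1 RPKM. Col1a1 is the gene beside the KH2 docking site. The basement membrane chains Col4a1 (163 RPKM treated, 71.6 untreated) and Col4a2 (103 and 40.1 RPKM) were higher by less. Col18a1, another basement membrane chain, had 56.4 RPKM in treated and 74.5 RPKM in untreated cells and was not called.

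Enzymes that modify and cross-link collagen were higher too, 8 of 17 with 0 lower, a called share of 47.1% beside 5.08% of all genes. Lox, the lysyl oxidase that cross-links collagen and elastin, had 579 RPKM in treated and 94.0 RPKM in untreated cells, 6.16-fold higher (5.93 to 6.4). Loxl2 had 210 RPKM in treated and 55.5 RPKM in untreated cells, and the prolyl hydroxylase gene P4ha2 had 152 and 55.0 RPKM. The collagen chaperone gene Serpinh1 had 184 RPKM in treated and 83.8 RPKM in untreated cells.

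Small leucine-rich proteoglycans, which bind collagen and space its fibrils, held the 2 highest log2 ratios of all genes, those of Prelp (4.65) and Ogn (4.40). Prelp had 2141 reads (65.7 RPKM) in treated and 70 reads (2.14 RPKM) in untreated cells, and Fmod had 705 reads (27.3 RPKM) in treated and 50 reads (1.92 RPKM) in untreated cells. Ogn had 253 reads in treated and 1 read in untreated cells, a fold of 254 with a counting interval of 45.2 to 10077, and Aspn had 108 reads in treated and 1 read in untreated cells, a fold of 108 (19.1 to 4324). Bgn, the member with the most RPKM, had 407 RPKM in treated and 156 RPKM in untreated cells, and Podn completes the 6 higher of 10. Dcn, which is often used as a fibroblast marker, had 16.5 RPKM in treated and 10.9 RPKM in untreated cells (0.58) and was not called. Fbln1 (25.4 RPKM treated, 27.5 untreated) and Tnc (90.2 and 69.3 RPKM) were likewise not called.

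Elastic fibre and CCN genes contributed 17 higher members of 24, with 0 lower. Fbn1, the fibrillin of the microfibril scaffold, had 21.1 RPKM in treated and 4.36 RPKM in untreated cells, and the fibulin gene Fbln5 had 11.1 and 1.25 RPKM. The matricellular genes Ccn5 (446 reads treated, 19 untreated) and Ccn4 (488 and 72 reads) were higher, whereas Eln, which encodes elastin itself, stood at 0.497 RPKM in treated and 0.669 RPKM in untreated cells. Thbs1, an activator of latent TGF-beta, had 656 RPKM in treated and 185 RPKM in untreated cells. Another 2 of the 15 highest genes were the matrix gene Ccdc80 and the stromal surface gene Cd248. Ccdc80 had 1748 reads in treated and 86 reads in untreated cells, and Cd248 had 2278 and 235 reads in the same order.

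**Figure D4:**
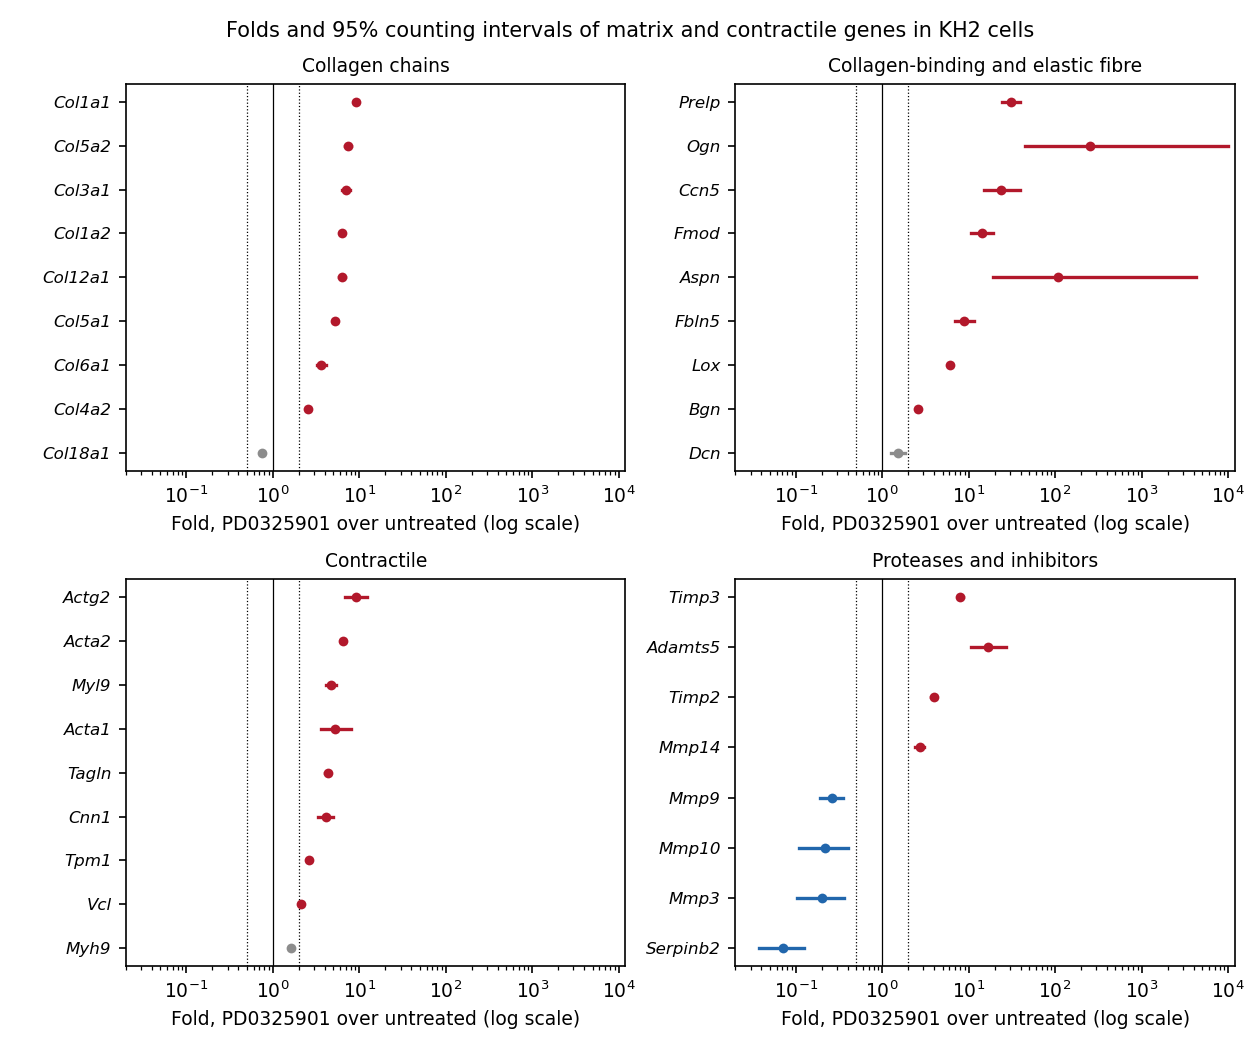
Fold of reads scaled to library totals, PD0325901 over untreated (log scale), with exact 95% counting intervals for 35 matrix, contractile and protease genes. Red is called higher, blue called lower and grey not called, and dotted lines mark 2-fold; Ogn and Aspn, with 1 read each in the untreated library, have the widest intervals.

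Genes of the contractile apparatus were higher as a group, 13 of 23 with 0 lower and a median of 1.07. The smooth muscle actin genes Acta2 (345 RPKM treated, 53.3 untreated) and Actg2 (37.8 and 4.18 RPKM) led, followed by the myosin light chain gene Myl9 (111 and 23.7 RPKM) and skeletal muscle actin, Acta1 (11.1 and 2.10 RPKM). The actin-binding genes Tagln (350 RPKM treated, 81.5 untreated) and Cnn1 (27.9 and 6.87 RPKM) and the tropomyosin gene Tpm1 (311 and 120 RPKM) were higher as well. Vcl, which links actin to adhesions, had 79.6 RPKM in treated and 37.6 RPKM in untreated cells. The nonmuscle myosin gene Myh9 had 168 RPKM in treated and 102 RPKM in untreated cells (0.71), and Actb 877 and 772 RPKM (0.18), neither called.

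Many contractile genes carry CArG boxes, the sites of serum response factor, so the promoters of the list were searched for this motif on both strands over the 250 bases before each start site, in the RefSeq promoter table of build GRCm38.p6. Of the 21 list members with an entry 5 held it, against 1.62% of 27025 genes, and 3 of these, Myl9, Acta1 and Vcl, were among the higher genes. Their windows are shown because they belong to higher members of the group, with the box in capitals. They lie at chr2:156775214-156775463 (+ strand) for Myl9, chr8:123894776-123895025 (- strand) for Acta1 and chr14:20929148-20929397 (+ strand) for Vcl.
Myl9: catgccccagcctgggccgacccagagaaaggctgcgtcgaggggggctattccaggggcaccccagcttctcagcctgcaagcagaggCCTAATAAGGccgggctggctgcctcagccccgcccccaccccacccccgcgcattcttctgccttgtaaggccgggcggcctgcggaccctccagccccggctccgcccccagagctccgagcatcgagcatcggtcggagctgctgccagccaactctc
Acta1: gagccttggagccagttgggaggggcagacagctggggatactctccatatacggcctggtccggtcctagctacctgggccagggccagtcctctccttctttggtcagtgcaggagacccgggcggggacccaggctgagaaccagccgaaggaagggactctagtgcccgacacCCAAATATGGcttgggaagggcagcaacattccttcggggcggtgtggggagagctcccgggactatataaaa
Vcl: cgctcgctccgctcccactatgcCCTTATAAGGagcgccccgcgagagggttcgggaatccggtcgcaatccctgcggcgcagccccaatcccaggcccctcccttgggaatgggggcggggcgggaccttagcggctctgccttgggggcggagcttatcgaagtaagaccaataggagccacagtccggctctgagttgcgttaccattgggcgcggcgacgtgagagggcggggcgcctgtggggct
A match describes these letters and is not evidence of binding. The box starts 161 bases before the start site in Myl9, 73 bases before it in Acta1 and 227 bases before it in Vcl.

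Targets of Yap and the Tead factors, which respond to cell shape and tension, were higher in 8 of 18 cases with 0 lower and a median of 0.71. The called share was 44.4%, beside 5.08% of all genes. Ccn2 had 517 RPKM in treated and 129 RPKM in untreated cells, 4-fold higher (3.84 to 4.17), and Ccn1 had 213 and 74.3 RPKM. The tissue factor gene F3 had 129 RPKM in treated and 40.2 RPKM in untreated cells, and the Yap inhibitors Amotl2 (68.7 RPKM treated, 30.0 untreated) and Lats2 (9.60 and 3.25 RPKM) were also higher. Crim1, Tead3 and Ankrd1 complete the 8. Yap1 itself had 45.6 RPKM in treated and 41.4 RPKM in untreated cells, and Tead2 had 55.4 and 58.2 RPKM.

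The Tead core motif CATTCC was searched in the same way, on both strands, where GGAATG is its reverse complement. It lay in 9 of the 13 list members with an entry and in 14.4% of 27025 genes. Of the 8 higher genes 7 had an entry and 5 held it, and the windows of Ccn1 and Amotl2 are shown as members with large read counts, with the motif in capitals. They lie at chr3:145649986-145650235 (- strand) for Ccn1 and chr9:102717554-102717803 (+ strand) for Amotl2.
Ccn1: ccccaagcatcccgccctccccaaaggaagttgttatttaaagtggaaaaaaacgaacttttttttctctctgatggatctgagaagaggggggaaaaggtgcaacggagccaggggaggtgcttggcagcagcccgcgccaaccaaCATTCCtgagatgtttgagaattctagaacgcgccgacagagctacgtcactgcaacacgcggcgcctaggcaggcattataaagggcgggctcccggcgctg
Amotl2: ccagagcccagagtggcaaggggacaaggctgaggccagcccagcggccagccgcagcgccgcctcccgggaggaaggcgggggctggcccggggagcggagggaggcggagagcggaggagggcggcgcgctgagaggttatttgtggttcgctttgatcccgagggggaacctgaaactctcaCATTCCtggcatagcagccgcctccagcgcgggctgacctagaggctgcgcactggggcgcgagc
Another motif searched, the Ets core CCGGAA on both strands, lay in 0 of the 4 genes with an entry among the 7 called Sprouty, phosphatase and Ets genes, and in 13.6% of all genes. That says only that these letters are not in those windows.

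Secreted proteases and their inhibitors went both ways. Of 19 compared metalloproteinase genes and inhibitors 7 were higher and 3 lower. The tissue inhibitor genes Timp3 (234 RPKM treated, 29.3 untreated) and Timp2 (144 and 36.4 RPKM), the aggrecan-cleaving Adamts5 (348 reads treated, 21 untreated) and Adamts1, the membrane collagenase Mmp14 (50.6 and 18.7 RPKM), Adam12 and Mmp23 were higher. The 3 lower genes were secreted matrix metalloproteinases, Mmp3 with 14 reads in treated and 70 in untreated cells, Mmp9 with 58 and 222 reads, and Mmp10 with 13 and 60 reads. Mmp2, the gelatinase typical of fibroblasts, had 27.1 RPKM in treated and 15.4 RPKM in untreated cells (0.80). Among 16 serpins and plasminogen activators 6 were higher, including the collagen-bound Serpinf1 (94.9 RPKM treated, 37.3 untreated), and Serpinb2, the urokinase inhibitor PAI-2, was lower with 13 reads in treated and 183 reads in untreated cells.

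Of 22 genes of the epithelial and mesenchymal transition 3 were higher and 1 lower. The transition factors Snai2 (6.10 RPKM treated, 2.11 untreated) and Zeb1 (7.31 and 3.13 RPKM) and the motility gene S100a4 (112 and 35.2 RPKM) were higher, and Grhl2 lower. E-cadherin, Cdh1, had 119 RPKM in treated and 120 RPKM in untreated cells. Vim had 684 RPKM in treated and 372 RPKM in untreated cells (0.88), and fibronectin, Fn1, had 528 and 269 RPKM (0.97), both just inside the limit, which Fn1 passes under TMM scaling.

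Lineage lists had called shares of 27.8% for primitive endoderm, 40.0% for mesoderm, 10% for neural, 18.8% for trophoblast and 40.0% for Hox genes, beside 5.08% of all genes. Of 18 primitive endoderm genes and endocytic receptors, Sparc (687 RPKM treated, 219 untreated) and the chains Col4a1 and Col4a2 were higher, and the partner receptors Cubn (104 reads treated, 554 untreated) and Lrp2 (212 and 689 reads) lower. The lineage factors Gata4 (7.85 RPKM treated, 7.36 untreated) and Gata6 (3.60 and 5.37 RPKM) were not called. In the primitive streak and mesoderm list only 10 of 20 genes reached the limits on reads and level. Mixl1 was lower (8 reads treated, 36 untreated) and Foxc1, Foxc2 and Foxf1 were higher, each with at most 60 reads in treated cells, while T had 6.97 RPKM in treated and 11.7 RPKM in untreated cells and Eomes 4.06 and 6.58 RPKM. All 4 of these calls end with a pseudocount of 1 RPKM. The neural list gave Ncam1 as its 1 higher gene of 10, and the trophoblast list Rhox9 as higher and Phlda2 and Cdx2 as lower of 16. Phlda2, a maternally expressed growth regulator, had 16.8 RPKM in treated and 65.7 RPKM in untreated cells. Of 20 compared Hox genes 7 were higher and 1, Hoxb1, lower, with Hoxc8, Hoxb9 and Hoxc6 at the largest read sums, and the levels stayed low, at 12.6 RPKM in treated and 4.46 RPKM in untreated cells for Hoxb9. The higher calls of Hoxb6, Hoxc10 and Hoxc13 end with a pseudocount of 1 RPKM. With at least 100 reads required, their calls and those of Hoxd8 and Hoxb1 end.

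Imprinted genes again went both ways. H19, a noncoding RNA expressed from the maternal allele, had 858 reads (36.3 RPKM) in treated and 167 reads (7.03 RPKM) in untreated cells, 5.16-fold higher (4.37 to 6.13), and Plagl1 had 7.54 RPKM in treated and 3 RPKM in untreated cells. Phlda2 and Peg10 (30.2 RPKM treated, 68.4 untreated) were lower, and 18 of 22 genes were not called. Igf2, the neighbour of H19, had 26.7 RPKM in treated and 15.4 RPKM in untreated cells (0.77). The germline genes Mael and Sycp3 were lower, 2 of 19 with 0 higher, at 5.50 RPKM in treated and 14.4 RPKM in untreated cells for Mael. Dazl, a germ cell RNA-binding protein, had 5.71 RPKM in treated and 2.84 RPKM in untreated cells (0.89).

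Some surface and transport genes stood out from their families. Of the 6 compared Ly6 genes 4 were higher, led by Ly6a (Sca-1) with 361 reads in treated and 29 reads in untreated cells. The others were Ly6c1, Ly6g6d and Ly6g6e, and similar copies in this family make counts of uniquely mapped reads uncertain. The calls of Ly6c1 and Ly6g6d end when at least 100 reads are required. Annexins, calcium-dependent membrane binders, had 4 higher of 9, among them Anxa1 with 166 RPKM in treated and 57.8 RPKM in untreated cells. Of 228 solute carriers 7 were higher and 7 lower, a called share of 6.14% that is near the 5.08% of all genes. Slc7a7, a light chain of a cationic amino acid exchanger, had 311 reads (15 RPKM) in treated and 1257 reads (60.4 RPKM) in untreated cells. Among the 15 lowest genes 5 lie outside these lists. Trh, the thyrotropin-releasing hormone precursor, had 25.9 RPKM in treated and 147 RPKM in untreated cells, the membrane-bound transcription factor gene Myrf had 2.62 and 13.7 RPKM, and the transglutaminase gene Tgm3 had 8 reads in treated and 111 reads in untreated cells. Enpp3, an ectonucleotidase gene, had 51 reads in treated and 286 reads in untreated cells, and the carbonic anhydrase gene Car4 had 22 and 110 reads in the same order.

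Shares of called genes in the immune and glycolysis lists were above the 5.08% of all genes, at 15.4% for MHC class I, 21.1% for interferon-stimulated, 11.8% for inflammatory secreted and 11.5% for glycolysis genes, each from 2 to 4 calls. B2m, the light chain of MHC class I, had 226 RPKM in treated and 87.1 RPKM in untreated cells and H2-T23 8.98 and 3.34 RPKM, while the classical heavy chain genes H2-K1 (71.4 RPKM treated, 37.2 untreated) and H2-D1 (27.0 and 14.8 RPKM) were just inside the limit. Of 19 interferon-stimulated genes Ifi27, Ifit1, Isg20 and Xaf1 were higher, and the factor gene Irf1 (12.5 RPKM treated, 18.4 untreated) was not called. With at least 100 reads required, the calls of Ifit1 and Isg20 end. Saa3, an acute phase gene, had 256 reads in treated and 24 reads in untreated cells. Among 26 glycolysis genes Hk1, Pygl and Eno2 were higher with log2 ratios of 1.02 to 1.06, and Slc2a1, the main glucose transporter gene, had 345 RPKM in treated and 484 RPKM in untreated cells (−0.49).

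With 5.08% of all genes called, a short list with 0 calls is near the background and says little about its genes. The lists for DNA repair (27 compared genes), telomeres (18), the respiratory chain (24), cholesterol and fatty acid synthesis (22), amino acid and ER stress (21), and Polycomb and Trithorax (24) had 0 genes in either direction. Among families the same held for 86 ribosomal protein genes, 25 ABC transporters, 14 Kruppel-like factors, 12 Sox genes, 12 cadherins, 7 claudins, 7 keratins and 14 tubulins. Ribosomal protein genes shared a small difference, with 83 of 86 log2 ratios negative and a median of −0.18. It was not particular to them. Negative log2 ratios also made up 23 of 27 in DNA repair (median −0.22) and 28 of 30 in replication and mitosis (median −0.16). The 10 largest losses in RPKM, led by the translation factor gene Eef1a1 with 5133 RPKM in treated and 5765 RPKM in untreated cells, were of abundant genes, and 0 of the 10 were called.

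The inhibitor pair in the engineered line shares no library with the KH2 pair and was made 96 hours after Dox withdrawal. In it 1.93% of 11920 compared genes were called, 160 higher (1.34%) and 70 lower (0.587%), fewer than in KH2 cells, and the difference in number was not tested. Of the 493 genes higher in KH2 cells 407 met the limits there, 396 of these (97.3%) had a positive log2 ratio, against 49.7% of the other genes compared in both pairs, and 133 were called higher. Of the 156 genes lower in KH2 cells 103 met the limits, 94 of these (91.3%) had a negative log2 ratio, against 48.3% of the other genes, and 35 were called lower. None of the 407 and 103 genes that met the limits there was called in the opposite direction. Over all genes compared in that pair only 0.587% were called lower and 1.34% higher, so 0 opposite calls is near that background.

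Gene by gene, the sizes were alike for some groups and unlike for others, and no difference between the pairs was tested. The fibroblast list had a median log2 ratio of 1.65 in KH2 cells and 1.52 in Erk KO cells, with 20 of 29 and 19 of 28 genes called higher. For Col1a1 the levels in Erk KO cells were 218 RPKM with the inhibitor and 25.9 RPKM without it, and for Spry4 0.132 and 6.41 RPKM. The naive factors had a median of 0.67 in KH2 cells and 0.16 in Erk KO cells, where 0 of 19 were called. Prdm14 there had 24.8 RPKM with and 18.4 RPKM without the inhibitor, so the level without it was above that of treated KH2 cells at 13.8 RPKM. The formative list had a median of −1.41 in KH2 cells and −0.21 in Erk KO cells, the contractile list 1.07 and 0.38, and the CDK inhibitors 0.65 and 0.19. Acta1 had 0.906 RPKM with and 0.767 RPKM without the inhibitor in Erk KO cells, both under the 1 RPKM that a comparison required.

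**Figure D5:**
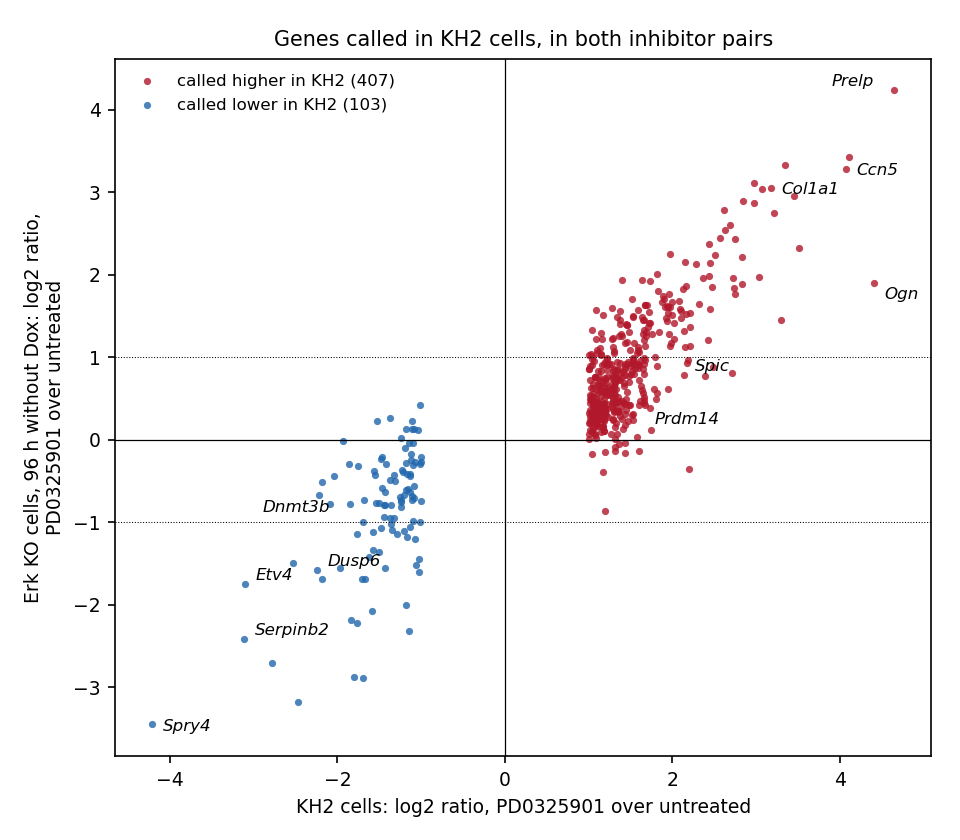
Log2 ratio of RPKM plus 0.5, PD0325901 over untreated, in KH2 cells (horizontal) and in Erk KO cells 96 hours without Dox (vertical), for the genes called in KH2 cells that met the limits in both pairs. Each point is a gene, red for the 407 higher and blue for the 103 lower in KH2 cells; 396 red points lie above and 94 blue points below the horizontal line at 0.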

How the data were processed

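Polyadenylated RNA was sequenced as single reads of 50 bases, per the labels' protocols, and each library has a deposited table with 1 row per gene that has reads. The authors deposited counts of uniquely mapped reads, RPKM values and the percent of each gene's length covered by reads, per the file headers. Reads were mapped to build mm9, per the submitters' processing notes. The aligner and the gene annotation are not given in the sources used here. In both KH2 libraries the deposited RPKM was compared with reads scaled to gene length and library total. The relative error was at most 4.1e-15 for nearly all genes with reads, and the percent coverage was not compared.

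Tables were joined by gene identifier, with an absent row taken as 0 reads. Log2 ratios were computed on RPKM plus 0.5. Exact Clopper-Pearson intervals at 95% cover counting error only, since reads carry no molecular identifiers. With 1 library per group, no count model was fitted, and edgeR 4.0.16 (TMM) and DESeq2 1.42.0 in R 4.3.3 gave scaling factors for the counts only. Other steps used Python 3.11.15, numpy 2.4.6, pandas 2.3.3, scipy 1.17.1 and matplotlib 3.10.9, and the size rule was tested on simulated data. The genes named are the 15 highest and 15 lowest called genes with at least 100 reads over both libraries, the 10 largest gains and losses in RPKM, called and key members of the 54 lists and 40 families, and abundant members that were not called. A selection of these is printed, and a few genes are not reported here. The members and lists were chosen with earlier results of these data known. Unique-read counting makes genes with similar copies (Ly6, Serpinb, H2, Ifitm, Rhox and the actins) uncertain, and the labels' protocol names no step that marks strand, so overlapping genes may share reads. Alternatives were other pseudocounts, scalings, read and level minimums and fold limits.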

Additional observations from a re-analysis of the deposited data

How the results depend on the processing

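With 1 library per group, leaving out a replicate was not possible, and depth sets only the counting intervals. No paired analysis was possible because each group has 1 library and the labels give no replicate numbers. The count of 493 higher genes was 1202 with a 1.5-fold limit and 144 with a 3-fold limit. The count of 156 lower genes was 653 with a 1.5-fold limit, 39 with a 3-fold limit, 275 with a pseudocount of 0.1 RPKM and 93 with at least 100 reads. Under TMM scaling the counts were 520 higher and 148 lower, and under DESeq2 size factors 502 and 153. Under library totals without the 5 mesenchymal lists they were 516 higher and 148 lower, and with a pseudocount of 1 RPKM 379 and 111. The 2 other pseudocounts and 3 other scalings were the alternatives run on single log2 ratios, and they could not reverse a call. A pseudocount does not change the sign of a ratio. The scalings shift a log2 ratio by at most 0.031, while a call needs a size of at least 1. TMM scaling shifted log2 ratios by up to 0.031, and by less at low RPKM because of the pseudocount. Of the genes printed, Fn1 and Nanog then passed the limit and Spred1 and Crabp1 lost their calls, and the same 4 changed under totals without the mesenchymal lists. With a pseudocount of 1 RPKM the calls of Spred1, Mixl1, Foxc1, Foxc2, Foxf1, Nog, Bmp2, Wnt4, Wnt5a, Cdx2, Pdgfa, Eno2, Adam12 and Mmp23 ended. So did those of Robo4, Esam, Hoxb6, Hoxc10 and Hoxc13. With at least 100 reads required, genes with few reads were no longer compared, among them Spic, Fgf5, Hoxb1, Areg, Mmp3 and Mmp10.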

Other observations

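Further families also gave calls in the treated KH2 library. Among 10 compared Igf-binding genes 3 were higher, led by Igfbp7, a secreted binder of insulin-like growth factors, with 190 RPKM in treated and 49.6 RPKM in untreated cells. Of 19 integrins the collagen receptor gene Itga11 was the 1 called, with 18.2 RPKM in treated and 2.94 RPKM in untreated cells. That called share of 5.26% is near the 5.08% of all genes. Cyp1b1, a cytochrome P450 gene, had 23.1 RPKM in treated and 4.89 RPKM in untreated cells.

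Lower genes outside the Erk and formative lists were scattered over families. Of 25 compared potassium channel genes 3 were lower and 0 higher, each with at most 53 reads in untreated cells. That count is 2 under TMM scaling and 0 with a pseudocount of 1 RPKM. Zfp423, a zinc finger factor, had 2.38 RPKM in treated and 8.68 RPKM in untreated cells. It was the 1 lower gene of 335 Zfp genes, with 2 higher. The called share of this family, 0.896%, is below the 5.08% of all genes. Slc39a14, a zinc and iron importer, had 7.22 RPKM in treated and 22.2 RPKM in untreated cells, and the iron exporter gene Slc40a1 had 2.91 and 7.65 RPKM in the same order. Plk3, a stress-response kinase on the p53 target list, had 8.49 RPKM in treated and 22.7 RPKM in untreated cells. It was the 1 lower gene of 26 on that list, where 3, Cdkn1a, Gdf15 and Fas, were higher. The called share was 15.4%, beside 5.08% of all genes. Trp53 had 142 RPKM in both libraries.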
